A study of Mus musculus with 6 samples.

Results

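A set of 10 genes of the Wnt and beta-catenin pathway is described here across the 6 libraries of a study of urolithin A in activated mouse T cells. They were chosen by name, as the receptor gene Fzd7, the coreceptor gene Lrp6, the scaffold genes Axin1, Axin2 and Apc, the kinase genes Gsk3a, Gsk3b and Csnk1a1, the ubiquitin ligase adaptor gene Btrc and the gene of beta-catenin itself, Ctnnb1. All 10 had a row among the 18828 genes of the deposited table, and all 10 passed the filter on low counts that left 14444 genes for testing. The cells were wild-type splenic T cells of FVB mice, an inbred strain. In both groups they were activated through CD3, part of the T cell receptor complex, and the costimulatory receptor CD28, by antibodies on beads. From the start of that stimulation they received either 50 µM urolithin A, a product of gut bacteria known to induce mitophagy, or DMSO, its solvent, and RNA was taken after 48 h. There were 3 libraries in each group, with the letters a to c. Whether a letter stands for its own animal or culture is not stated in the labels, nor are the T cell subsets, so p-values here measure the spread between these libraries, which may be technical.

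In cells without a Wnt signal, beta-catenin is held by a destruction complex of the scaffolds AXIN and APC. CK1 alpha, the product of Csnk1a1, and then GSK3 phosphorylate it there, and beta-TrCP, the product of Btrc, marks it for degradation. A Wnt ligand that binds a Frizzled receptor together with LRP5 or LRP6 draws AXIN to the membrane and halts this, and beta-catenin then accumulates and joins the factors TCF-1 and LEF-1 on their target genes. In T cells this branch is known for its part in thymocyte development and for its link to memory and stem-like T cells. The amount of beta-catenin is set mainly at the level of the protein, which RNA sequencing does not measure.

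The total count ran from 12738059 to 19081219 per library. The share of counts from ribosomal RNA genes was 18.4% in DMSO library b, 4.88% in library a of the urolithin A group and 0.524% to 1.95% in the others. Levels are given as CPM, counts per 1000000 after scaling by trimmed means of M values, a factor for the composition of each library. All 12 T cell markers examined were tested, and their summed level was 2931 to 3065 CPM with DMSO and 2914 to 3142 CPM with urolithin A, with 2 of them higher and 2 lower. Of 7 B cell markers, all tested, 3 rose, and their sum was 163 to 180 CPM with DMSO and 207 to 250 CPM with urolithin A, most of it Ighm. Of 7 stromal and endothelial markers 4 were tested and 1 rose, Pecam1, which leukocytes also express. Summed over the 7 genes their level was 74.8 to 76.0 CPM with DMSO and 105 to 131 CPM with urolithin A, while Cdh5, the endothelial cadherin, stayed under 0.2 CPM in every library. The macrophage and granulocyte list summed to 6.19 to 7.89 CPM with DMSO and 12.7 to 14.7 CPM with urolithin A, with 1 of 2 tested genes higher (Mpeg1, 3.14-fold). The erythroid list summed to 2.23 to 2.57 and 3.80 to 4.45 CPM (1 of 2 tested higher, Hbb-bs), and neither of these lists overlapped between groups. The dendritic cell list summed to 5.63 to 6.58 and 6.03 to 8.43 CPM (1 of 2 tested higher, Zbtb46), and the NK cell list to 1.53 to 2.28 and 1.96 to 2.39 CPM, with no call in its 2 tested genes. By the rule for calls given below, 33.7% of all genes tested were called, and for 46.8% of them the groups did not overlap. These marker counts are to be read beside those shares. The part of other cell types in the results below was not tested. In such bulk samples, fewer cells of a type and less RNA per cell cannot be told apart.

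Of the 10 genes, 2 rose with urolithin A (Apc and Gsk3b), 1 fell (Fzd7), and 7 did not pass. A gene is called here when its p-value from the limma voom fit is under 0.05 after Benjamini-Hochberg adjustment over the 14444 genes. By that rule 33.7% of all genes tested were called, 17.7% higher and 16.0% lower, so 3 of 10 is close to the background. For 5 of the 10, Apc, Fzd7, Gsk3b, Gsk3a and Lrp6, the values of one treatment lay all above those of the other, where 46.8% of all genes tested had groups that do not overlap. The median log2 fold change of the 10 was 0.04, beside 0.01 over all genes tested, and the median absolute log2 fold change was 0.14, beside 0.25. Among the 7 that did not pass, the 95% intervals of the fold change ran from 0.770 at the lowest, for Gsk3a, to 1.29 at the highest, for Lrp6.

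**Figure D1:**
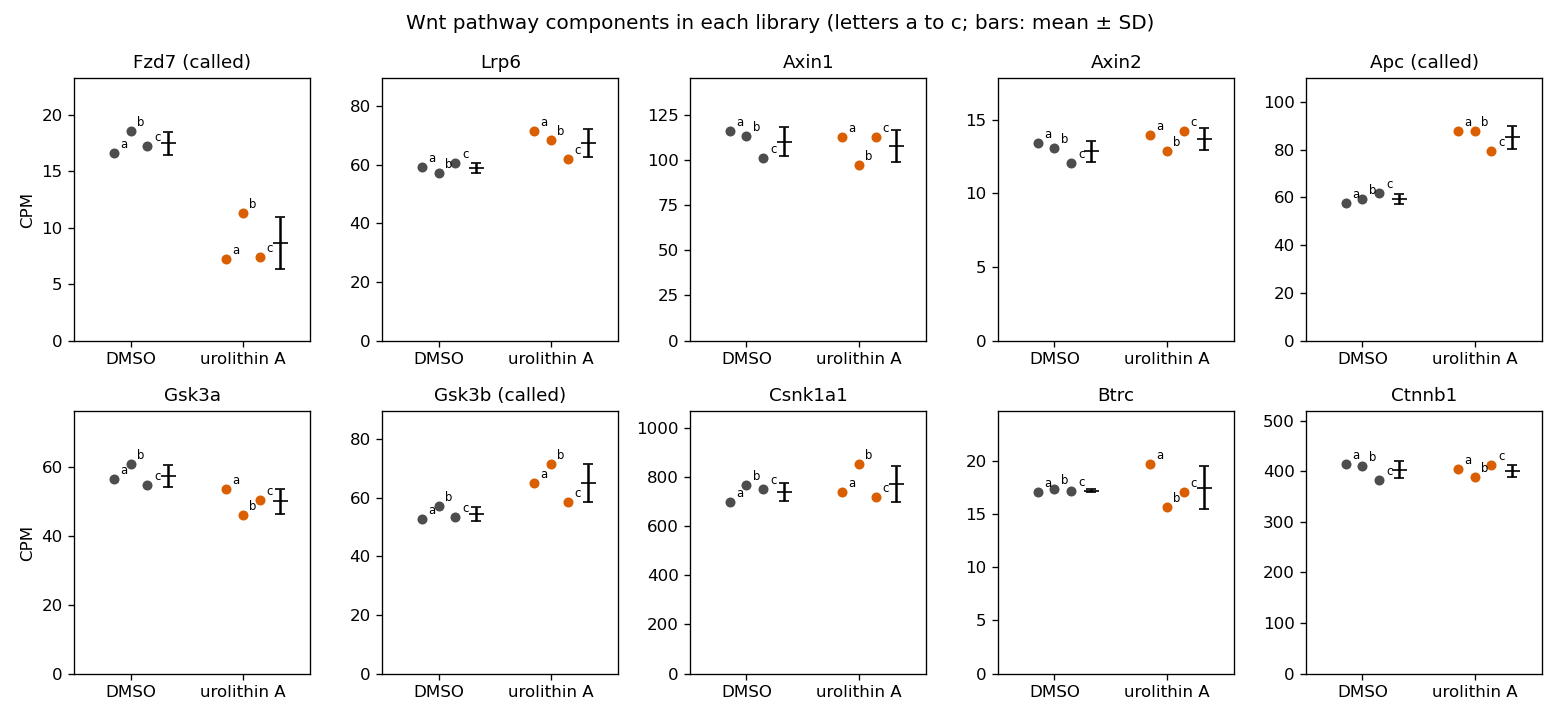
CPM (y axes, each starting at 0) of the 10 genes in the 3 DMSO (grey) and 3 urolithin A (orange) libraries, lettered a to c, with mean ± SD beside each group. Fzd7 and Gsk3a were lower and Apc, Gsk3b and Lrp6 higher in every urolithin A library than in every DMSO library. The groups of Ctnnb1, Axin1, Axin2, Csnk1a1 and Btrc overlapped.

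Compared per kilobase of exon, using the union of annotated exons of each gene, the components spanned a wide range of levels. With DMSO, Ctnnb1 stood highest at 77.7 CPM per kb, followed by Csnk1a1 at 70.4, Axin1 at 28.8 and Gsk3a at 19.8 CPM per kb. Gsk3b was at 5.54, Lrp6 at 4.31, Fzd7 at 3.85, Apc at 3.69, Axin2 at 2.33 and Btrc at 1.02 CPM per kb. In this order the values of neighbouring genes overlapped between libraries only for Fzd7 and Apc. With urolithin A the order shifted in its lower part, where Apc, at 5.28 CPM per kb, stood in place 6 instead of 8, and Fzd7, at 1.91 CPM per kb, in place 9 instead of 7. There, Ctnnb1 overlapped with Csnk1a1, Apc with Lrp6, and Axin2 with Fzd7. The exon union counts every annotated isoform, and the isoforms that these cells use were not examined.

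Fzd7 encodes a Frizzled receptor that binds Wnt proteins and has itself been described as a target of beta-catenin in other cell types. The deposited table places it at bases 59521583 to 59526114 of chromosome 1 (ENSMUSG00000041075, protein-coding, plus strand). The submitters' processing notes name mm10, but the table's positions are mostly not those of an mm10 annotation (GENCODE M21). Of 18725 gene IDs shared with it, only 385 have the same start and end in the table. The table's start of Fzd7 also lies outside the GRCm38.p6 window given below. Which build the table follows was not settled. Fzd7 and Axin2 are the members of the set that are also listed as beta-catenin targets, and their promoters are shown because Fzd7 passed the test and Axin2 did not. Each run holds 250 bases before to 50 bases after the annotated start, from RefSeq on GRCm38.p6, written 5′ to 3′ on the gene's strand, at chr1:59481897-59482196 for Fzd7 (plus strand) and chr11:108920099-108920398 for Axin2 (plus strand). Capitals mark matches to CTTTGA or CTTTGT on either strand, the core letters that TCF and LEF factors are known to prefer.
Fzd7: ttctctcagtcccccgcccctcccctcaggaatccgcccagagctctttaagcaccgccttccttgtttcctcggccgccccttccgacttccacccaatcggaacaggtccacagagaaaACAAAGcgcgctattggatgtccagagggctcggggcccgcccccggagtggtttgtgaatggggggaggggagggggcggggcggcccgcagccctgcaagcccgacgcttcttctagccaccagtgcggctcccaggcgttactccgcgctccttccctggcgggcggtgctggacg
Axin2: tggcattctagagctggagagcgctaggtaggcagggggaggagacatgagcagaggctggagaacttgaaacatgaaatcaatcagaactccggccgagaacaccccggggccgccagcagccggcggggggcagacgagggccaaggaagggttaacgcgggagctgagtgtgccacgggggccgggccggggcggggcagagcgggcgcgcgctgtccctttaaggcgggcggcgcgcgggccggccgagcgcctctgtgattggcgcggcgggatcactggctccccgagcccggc
The Fzd7 window holds 1 match, ACAAAG, the reverse complement of CTTTGT, whose first base lies 129 bases before the start, and the Axin2 window holds none. CTTTGT occurs on either strand in 18.7% of the 32851 promoter windows of this table, CTTTGA in 16.0%, and at least 1 of them in 31.2%. A match is a description of letters and not a binding site, and the windows are short.

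In libraries a, b and c, Fzd7 was counted 286, 267 and 324 times with DMSO and 138, 200 and 98 times with urolithin A. On the CPM scale it stood at 16.6, 18.6 and 17.2 with DMSO and at 7.18, 11.3 and 7.38 with urolithin A. Every urolithin A library was below every DMSO library, and urolithin A library b was the highest of its group. The mean fell from 17.5 ± 1.02 CPM (SD, n = 3) to 8.63 ± 2.34 CPM, a level 0.489 times that with DMSO. The log2 fold change was -1.03 ± 0.15 (SE) and the limma adjusted p 0.000138, with a 95% interval from -1.36 to -0.70. Of the 10 genes this was the widest interval and the widest change.

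Lrp6, the coreceptor that is phosphorylated when Wnt binds and then recruits AXIN, did not pass. It was at 59.3, 57.2 and 60.5 CPM with DMSO and 71.6, 68.4 and 62.1 CPM with urolithin A. The groups did not overlap, though urolithin A library c lay close to DMSO library c. The log2 fold change was 0.19 ± 0.08 (SE), with an unadjusted p of 0.0291 and a limma adjusted p of 0.0767. Without urolithin A library c it passed (log2 fold change 0.25, limma adjusted p = 0.0339), and in the other alternatives its adjusted p ran from 0.0527 to 0.560.

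**Figure D2:**
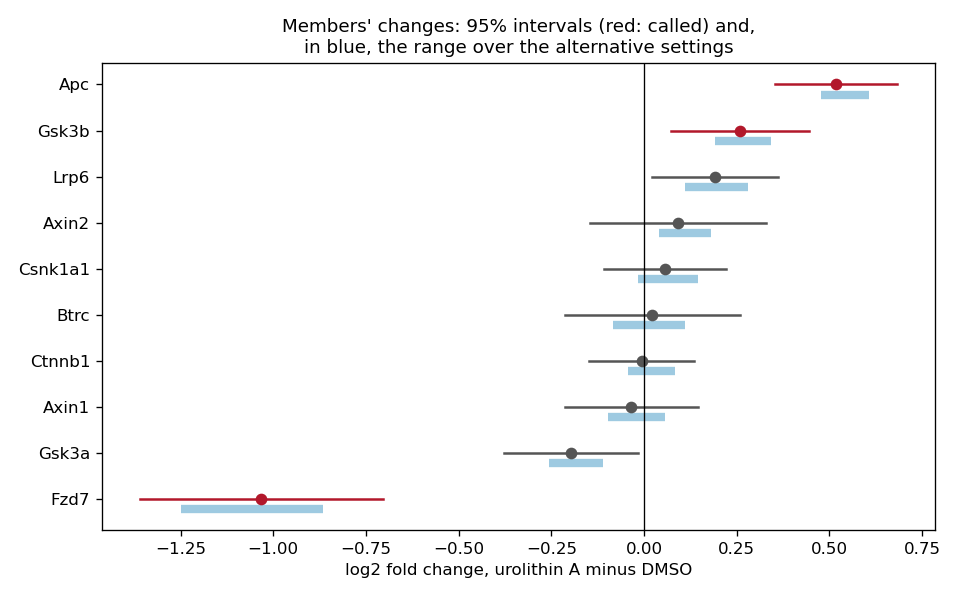
Log2 fold change (x axis, urolithin A minus DMSO) of each gene with its 95% interval from the limma voom fit, red where called, and in blue the range of the estimate over the 16 alternative settings. Fzd7 lies at -1.03 and Apc at 0.52, and the 8 other genes lie within -0.20 and 0.26.

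Apc encodes the large scaffold that presents beta-catenin to the kinases of the destruction complex and that also binds microtubules. It rose in all 3 urolithin A libraries. Its CPM was 57.5, 59.2 and 61.6 with DMSO and 87.9, 87.9 and 79.6 with urolithin A, so the groups did not overlap. The mean went from 59.4 ± 2.08 to 85.1 ± 4.80 CPM, which is 1.43 times as high (limma adjusted p = 0.000127, log2 fold change 0.52 ± 0.08). Together with the fall of Fzd7 this call stood in all 16 alternative settings, where the log2 fold change lay between 0.48 and 0.61 for Apc and between -1.25 and -0.87 for Fzd7.

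Axin1 encodes a scaffold whose protein has been described as limiting for the destruction complex. Axin2 encodes a related scaffold that beta-catenin induces as a feedback inhibitor. For this induction Axin2 is widely used as a readout of the pathway. Axin1 was at 116, 113 and 101 CPM with DMSO and at 113, 97.3 and 113 CPM with urolithin A, with groups that overlapped throughout (log2 fold change -0.03 ± 0.08, limma adjusted p = 0.788). For Axin2 the levels were 13.4, 13.1 and 12.0 CPM with DMSO and 13.9, 12.9 and 14.2 CPM with urolithin A. The groups of Axin2 overlapped through urolithin A library b. The 95% interval of its fold change ran from 0.904 to 1.26, so a rise of Axin2 transcripts beyond 1.26-fold lies outside it. Its counts, 188 to 268 per library, were among the lower ones of the set.

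Gsk3a and Gsk3b encode the closely related kinases GSK3 alpha and GSK3 beta, which phosphorylate beta-catenin in the complex and have many other substrates, glycogen synthase among them. Gsk3b was at 52.9, 57.3 and 53.4 CPM with DMSO and at 65.1, 71.7 and 58.5 CPM with urolithin A. Every urolithin A library was above every DMSO library, with urolithin A library c close to DMSO library b. The rise was 1.20-fold (log2 fold change 0.26 ± 0.09, limma adjusted p = 0.0334). This call was lost in 7 of the 16 alternatives. It was lost without DMSO library a (adjusted p = 0.115), b (0.0768) or c (0.103), without urolithin A library a (0.0827) or b (0.0557), without DMSO b and urolithin A a together (0.159) and with scaling to total counts (0.0793). In the last 2 settings the log2 fold change itself was larger, at 0.28 and 0.34, and with ribosomal RNA genes left out the call stood (0.0314).

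Gsk3a lay on the other side of the line. Its CPM was 56.5, 61.0 and 55.0 with DMSO and 53.6, 46.2 and 50.5 with urolithin A, each of the latter below all of the former. The log2 fold change of -0.20 ± 0.08 did not pass after adjustment (unadjusted p = 0.0338, limma adjusted p = 0.0860). In mm10 annotation an antisense RNA gene, 9130221H12Rik, overlaps Gsk3a on the opposite strand. That gene has a row of its own in the table. How the read strand was used in counting is not stated, so whether its reads entered the Gsk3a count is not known. Genes or pseudogenes on the opposite strand that have rows of their own in the table also overlap Ctnnb1, Axin1, Axin2, Apc and Btrc, while none was annotated across Fzd7 or Lrp6.

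The ratio of the 2 kinase transcripts does not depend on the scaling of the libraries. Gsk3b over Gsk3a was 0.935, 0.940 and 0.971 in the DMSO libraries and 1.22, 1.55 and 1.16 in the urolithin A libraries, where CPM are not corrected for transcript length. Gsk3a had the higher count in every DMSO library and Gsk3b in every urolithin A library. The log2 ratio was 0.45 higher with urolithin A (exact two-sided permutation p = 0.10, the smallest that 3 against 3 libraries allow, and 0.20 adjusted over the 4 ratios tested). Without urolithin A library b, whose ratio was the highest, the difference was 0.32. For Axin2 over Axin1 the ratio was 0.115 to 0.119 with DMSO and 0.124 to 0.132 with urolithin A, a log2 difference of 0.13 with the same exact p of 0.10 and 0.20 adjusted. The ratio of Lrp6 to its relative Lrp5 differed by -0.22 on the log2 scale (exact p = 0.30, adjusted 0.40), with groups that overlapped. With 1 library left out, that difference ran from -0.35 without urolithin A library b to -0.13 without DMSO library b or urolithin A library c. It was -0.097 without the libraries DMSO b and urolithin A a together.

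**Figure D3:**
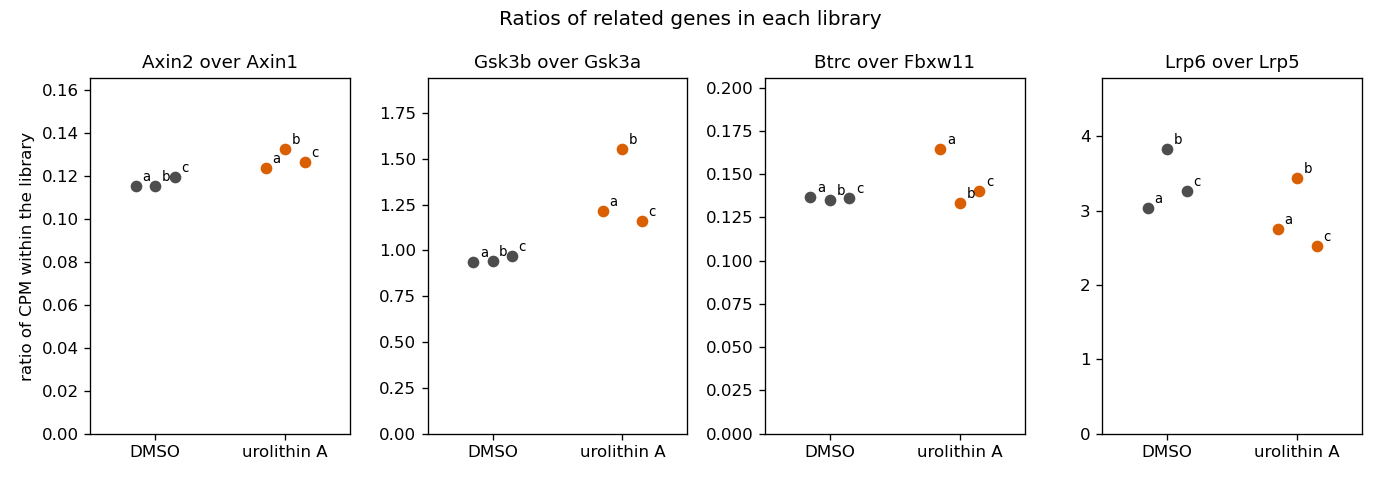
Ratio of CPM within each library (y axes, starting at 0) for 4 pairs of related genes, DMSO in grey and urolithin A in orange, with library letters. Gsk3b over Gsk3a was below 1 in all 3 DMSO libraries and above 1 in all 3 urolithin A libraries, while Btrc over Fbxw11 and Lrp6 over Lrp5 overlapped between groups.

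Promoters of the 2 kinase genes are shown because their transcripts were on opposite sides of zero. They come from the same RefSeq table and are written in the same way, at chr7:25237802-25238101 for Gsk3a (minus strand) and chr16:38088751-38089050 for Gsk3b (plus strand), and capitals mark the same letters as above.
Gsk3a: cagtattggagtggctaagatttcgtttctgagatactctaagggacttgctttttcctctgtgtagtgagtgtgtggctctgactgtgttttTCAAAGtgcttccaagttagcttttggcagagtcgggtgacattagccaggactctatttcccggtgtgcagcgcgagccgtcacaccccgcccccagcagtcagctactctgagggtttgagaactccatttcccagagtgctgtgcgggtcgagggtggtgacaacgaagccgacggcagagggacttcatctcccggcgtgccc
Gsk3b: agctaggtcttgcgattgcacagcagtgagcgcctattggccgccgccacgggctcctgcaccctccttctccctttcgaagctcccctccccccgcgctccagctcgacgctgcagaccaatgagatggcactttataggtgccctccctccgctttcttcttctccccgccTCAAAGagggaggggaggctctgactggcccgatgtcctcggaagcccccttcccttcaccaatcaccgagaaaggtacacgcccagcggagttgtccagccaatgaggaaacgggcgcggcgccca
Each holds 1 match, TCAAAG, the reverse complement of CTTTGA, with its first base 157 bases before the start of Gsk3a and 77 bases before that of Gsk3b. The letters are thus shared by both windows, and any link of these letters to the levels was not tested. Of the 10 genes, 5 had windows in the table, and neither of the 2 windows of Ctnnb1 held a match.

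Csnk1a1, the gene of the kinase that primes beta-catenin for GSK3, was the most counted of the 10, with 9537 to 15071 counts per library. Its level was 698, 768 and 753 CPM with DMSO and 739, 854 and 719 CPM with urolithin A. The groups overlapped, and urolithin A library b was the highest of all 6 (log2 fold change 0.06 ± 0.08, limma adjusted p = 0.606).

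Btrc encodes beta-TrCP1, the adaptor that recognises phosphorylated beta-catenin and hands it to a cullin ligase. Its level was 17.1, 17.4 and 17.2 CPM with DMSO and 19.7, 15.7 and 17.0 CPM with urolithin A. The DMSO libraries lay inside the range of the urolithin A libraries, and the log2 fold change was 0.02 ± 0.11 (limma adjusted p = 0.896). Fbxw11, the gene of the related adaptor beta-TrCP2, was counted more in every library. The ratio of Btrc to Fbxw11 was 0.135 to 0.137 with DMSO and 0.133 to 0.164 with urolithin A (log2 difference 0.09, exact permutation p = 0.40, adjusted 0.40). Without urolithin A library a that difference was 0.0064.

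Ctnnb1 had 415, 411 and 384 CPM with DMSO and 404, 388 and 412 CPM with urolithin A. The groups overlapped almost fully, with means of 403 ± 17.0 and 401 ± 11.9 CPM. The log2 fold change was -0.01 ± 0.07, and its 95% interval, from -0.15 to 0.14, was the narrowest of the 10. A change of the beta-catenin transcript beyond 0.902-fold or 1.10-fold lies outside it. Over the 16 alternatives the estimate ran from -0.04 to 0.08.

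Genes whose pattern over the 6 libraries was most like that of Fzd7 were sought among 9940 genes with a mean of at least 5 CPM. They were Hnrnpdl, Mzt1, Pbk, Necap1 and H1f4, with Pearson correlations of the log2 values of 0.994 to 0.996. These genes had log2 fold changes of -0.60 to -0.19. Such a correlation over 6 libraries rests mostly on the step between the groups and is given as a description.

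Around the 10 genes, 160 further genes of the pathway were listed by role, of which 111 had a row in the table and 96 were tested. Of these 28 rose and 11 fell, 40.6% in all, beside 33.7% of all genes tested, and the median log2 fold change was 0.10 beside 0.01. The limma fit made no call in 4 lists, the Wnt ligands with 2 tested genes, the R-spondin system and the adhesion partners with 3 each, and the beta-TrCP ligase with 6, Btrc included. In the ligase list 1 gene, Cul1, had an unadjusted p under 0.05 (0.0220).

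At the membrane, Fzd7 was part of a set of receptors that moved in both directions. Of 16 receptor and coreceptor genes, Fzd7 and Lrp6 included, 8 were tested, of which 3 rose and 2 fell. Thus 62.5% were called, beside 33.7% of all genes tested (median log2 fold change 0.32). Ryk, which encodes an atypical Wnt receptor with an inactive kinase domain, fell from 20.5 ± 1.24 to 11.4 ± 0.671 CPM. Fzd6, a Frizzled that is known mainly from the polarity branch, rose from 2.12 ± 0.278 to 5.11 ± 0.554 CPM (2.39-fold, limma adjusted p = 0.000263). Fzd7 therefore fell while Fzd6 rose in the same libraries, and the fold change of Fzd5 (1.18, limma adjusted p = 0.184) did not pass. Ptk7, a further coreceptor, rose 2.03-fold and Lrp5 rose 1.32-fold. The call of Ptk7 was lost without the libraries DMSO b and urolithin A a (limma adjusted p = 0.0681). That of Lrp5 was lost in 4 alternatives, with adjusted p up to 0.420.

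**Figure D4:**
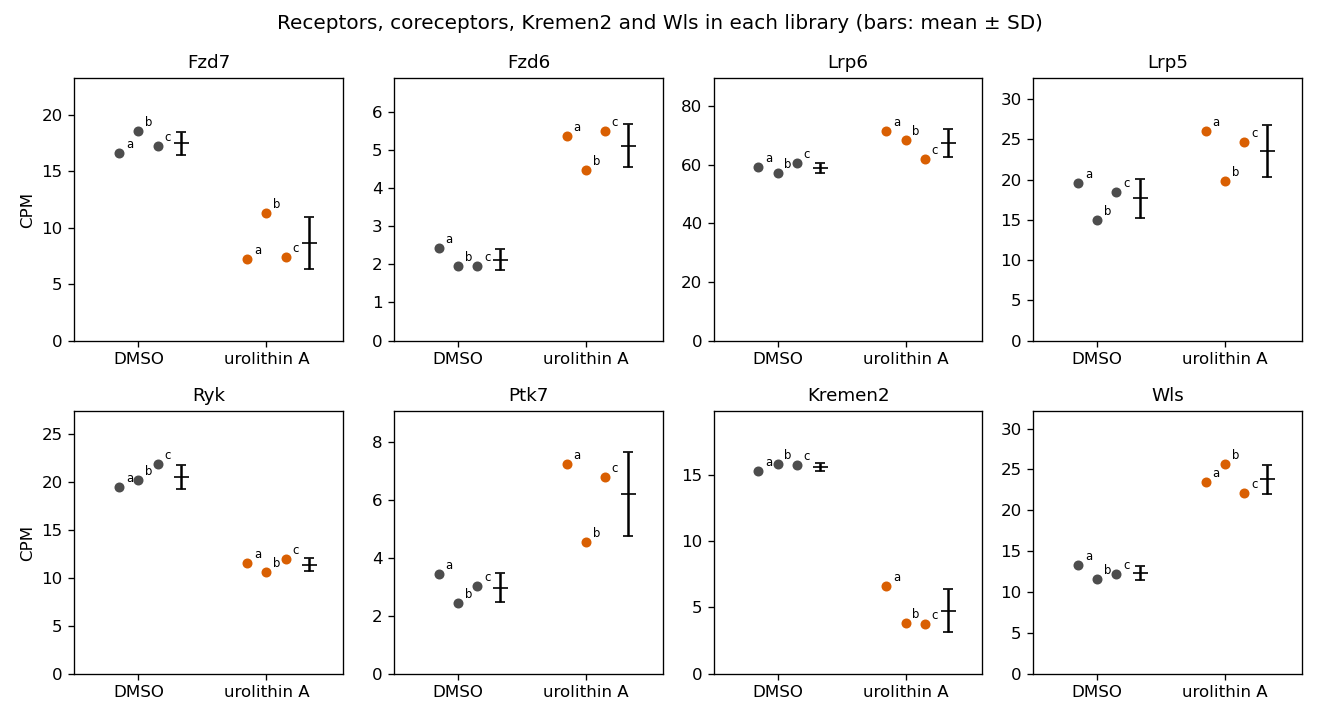
CPM (y axes, starting at 0) of receptor and coreceptor genes, of the antagonist receptor gene Kremen2 and of the Wnt carrier gene Wls in each library, with mean ± SD beside each group. Fzd7, Ryk and Kremen2 were lower and Fzd6, Ptk7, Lrp5, Lrp6 and Wls higher in every urolithin A library than in every DMSO library.

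Few Wnt ligand genes were measured. Of 19 Wnt genes 8 had a row and 2 were tested, Wnt5b and Wnt10b, and neither passed. Wnt10b, the more abundant, had means of 3.24 ± 0.526 and 4.50 ± 0.975 CPM in the DMSO and urolithin A groups (unadjusted p = 0.0386, limma adjusted p = 0.0951). Both Wnt secretion genes were tested and 1 passed. Wls, the carrier that brings Wnt proteins to the cell surface, rose from 12.3 ± 0.853 to 23.8 ± 1.78 CPM. Porcn, whose product adds the lipid that Wnt proteins need for secretion, had means of 0.732 ± 0.0691 and 0.368 ± 0.177 CPM in the DMSO and urolithin A groups, with values that did not overlap (log2 fold change -0.99, unadjusted p = 0.0277, limma adjusted p = 0.0736). Among 17 antagonist genes 4 were tested, of which 1 rose and 1 fell (50% called, beside 33.7% of all genes). Kremen2, a receptor for the antagonist DKK1 that helps to remove LRP6 from the surface, fell from 15.6 ± 0.288 to 4.74 ± 1.62 CPM, 0.301 times the DMSO level. Sfrp1, a secreted Wnt binder, rose in the fit but stayed under 1.1 CPM in every library, and its call was lost without DMSO library c (limma adjusted p = 0.0772). In 5 further alternatives it did not pass the filter on low counts. Of 9 R-spondin system genes 3 were tested, Lgr4, Rnf43 and Znrf3, and none passed (limma adjusted p of 0.0926 to 0.428), though 2 of the 3 had an unadjusted p under 0.05, Rnf43 at 0.0372 and Lgr4 at 0.0393.

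Between receptor and complex, 7 Dishevelled genes and regulators were tested, of which 1 rose and 2 fell (42.9%, beside 33.7% of all genes). Dact3, a Dishevelled antagonist, rose from 1.04 ± 0.129 to 3.94 ± 1.13 CPM. Dvl2, which encodes a Dishevelled protein, was at 0.835 times and Nkd2, which encodes a Dishevelled binder, at 0.558 times the DMSO level. The call of Dvl2 was lost in 6 alternatives and that of Nkd2 in 5, and Nkd2 was not tested in 1 more. Of the destruction complex and its phosphatase, 18 genes were tested, and 5 rose and 1 fell (33.3% called, median log2 fold change 0.04). Beside Apc and Gsk3b these were the kinase gene Csnk1d (1.28-fold) and the phosphatase subunit genes Ppp2r5d (1.28-fold) and Ppp2r5c, while Csnk1e was at 0.734 times its DMSO level. The call of Ppp2r5c was lost in 10 alternatives. Those of Csnk1d and Ppp2r5d were lost without the libraries DMSO b and urolithin A a (adjusted p = 0.0794 and 0.0771), and that of Csnk1e with scaling to total counts (adjusted p = 0.133). Csnk1g1, a membrane-bound CK1 that phosphorylates LRP6, rose from 66.3 ± 4.96 to 112 ± 0.213 CPM. In its list of 5, 2 rose while 1 fell (60% called). The others were the receptor kinase genes Grk5, at 1.32 times, and Grk6, at 0.824 times the DMSO level, with calls lost in 8 and 3 alternatives. Of 7 genes of AXIN turnover 2 rose and 1 fell (42.9% called). Tnks2, a tankyrase that marks AXIN for degradation, rose 1.36-fold, and Siah2, a ubiquitin ligase gene, fell to 0.601 times its DMSO level. Usp34, the gene of a deubiquitinase that stabilises AXIN, was 1.17-fold higher, a call lost in 5 alternatives.

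In the nuclear list, which holds Ctnnb1 itself with its partners, 5 of 12 tested genes rose and none fell. The share called was 41.7%, beside 33.7% of all genes tested. Ctnnb1, at a log2 fold change of -0.01, was not among the 5. Tcf7, the gene of TCF-1, rose 2.48-fold, from 52.4 ± 0.677 to 130 ± 11.1 CPM, and Lef1 rose 1.29-fold. The coactivator gene Crebbp rose 1.39-fold. Tbl1xr1, the gene of a transcriptional exchange factor, rose 1.24-fold, a call lost without the libraries DMSO b and urolithin A a (adjusted p = 0.0984). Of 12 nuclear inhibitors 5 rose and 2 fell (58.3% called). Of 5 genes of the Groucho (TLE) family tested, Tle4 rose to 1.46 times and Tle1 fell to 0.678 times its DMSO level. The other 3, Tle2, Tle3 and Tle5, had log2 fold changes of 0.09, -0.04 and 0.01 (limma adjusted p of 0.747 to 0.937). Nlk, the gene of a kinase that acts on TCF and LEF factors, rose 1.24-fold (adjusted p = 0.0921 without the libraries DMSO b and urolithin A a), and Hic1, a repressor gene, fell to 0.715 times. Of 8 adhesion partner genes 3 were tested and none passed (limma adjusted p of 0.0723 to 0.868), among them the alpha-catenin gene Ctnna1 (log2 fold change -0.17, unadjusted p = 0.0270). Of 12 planar polarity genes 8 were tested, and 2 rose, Invs and Daam1 (25% called). Both calls were lost without the libraries DMSO b and urolithin A a (adjusted p = 0.0740 and 0.0625).

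Target genes showed no common direction. Of 22 listed 15 were tested, of which 5 rose and 3 fell. The share called was 53.3%, beside 33.7% of all genes tested. The median log2 fold change was 0.14, beside 0.01 over all genes tested. Fzd7 fell, as did Myc, a growth regulator, to 0.644 times its DMSO level, and Vegfa, which hypoxia also controls, to 0.317 times. Tcf7 and Lef1, which are also in this list, rose 2.48-fold and 1.29-fold. Ccnd2, the gene of a G1 cyclin, rose 1.46-fold and Jun, a subunit of AP-1, 1.38-fold. Cd44 rose 1.18-fold, a call lost in 6 alternatives. Axin2, Rnf43 and Znrf3, which encode feedback inhibitors of the pathway, had fold changes of 1.07, 1.23 and 1.07, and none passed.

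**Figure D5:**
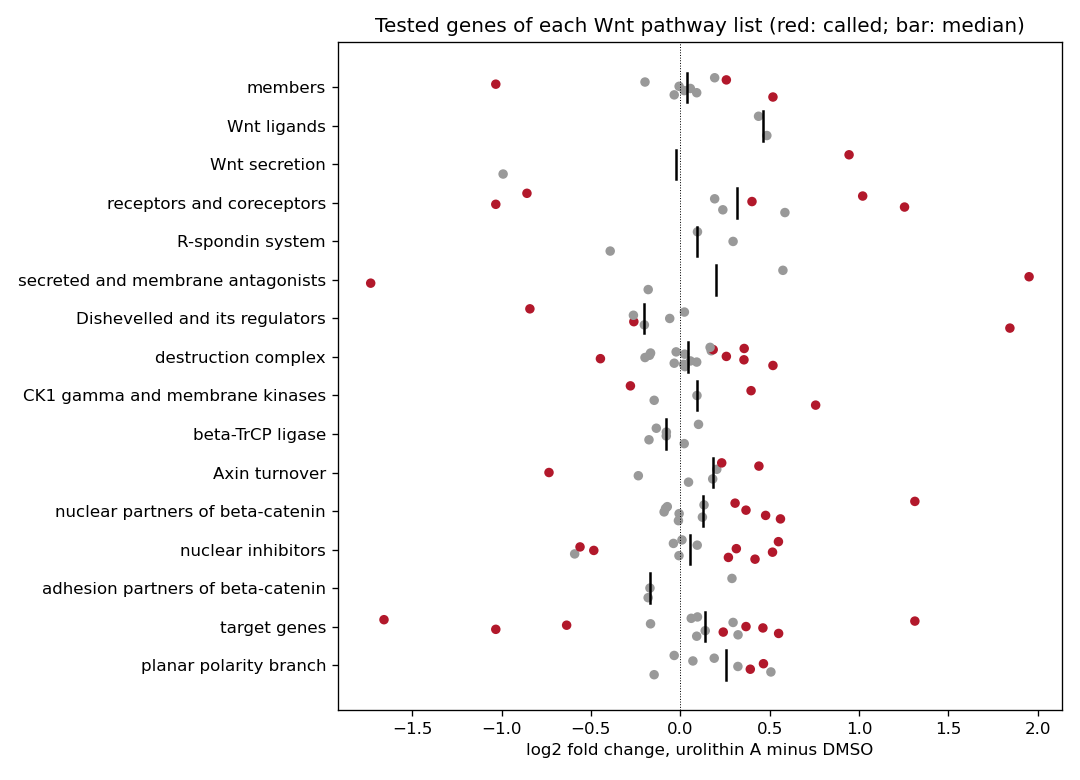
Log2 fold change (x axis, urolithin A minus DMSO) of every tested gene of each Wnt pathway list, red where called and grey where not, with a bar at the median of each list; a gene can stand in more than 1 list. The tested genes of most lists lie on both sides of zero, and 4 lists, the Wnt ligands, the R-spondin system, the beta-TrCP ligase and the adhesion partners, hold no called gene.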

How the data were processed

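RNA of 6 libraries was prepared with a stranded, mRNA-focused kit, per the labels. The deposited table holds whole numbers with a decimal comma per gene and library, in a unit that no label names. They were taken as read counts from the authors and used as deposited, without a negative binomial model. A second deposited file holds identical values, and 3 columns of per-library values that match no labelled sample were not used. Per the submitters' processing notes, the authors used bcl2fastq 2.20.0.422, FastQC, STAR 2.5.2a, the build mm10 and DESeq2. Not given in the sources used here are the counting program, its strand setting and the annotation.

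From these values, genes were kept by a count minimum of 10, scaled to the median library size, in at least 3 libraries and a total of at least 15. Scaling used trimmed means of M values (trimming 30% of M and 5% of A values). The voom method of limma 3.58.1 in R 4.3.3 (offset 0.5, robust eBayes) compared the groups without a block, with Benjamini-Hochberg adjustment over every tested gene, a threshold of 0.05 and 95% intervals. Ratios of related genes were compared by exact permutation tests over libraries. The fit was tested on simulated data. Fzd7 had 98 to 324 counts per library and Csnk1a1 9537 to 15071, and their log2 fold changes had SEs of 0.15 and 0.08. Axin2 and Btrc, also with low counts, both had an SE of 0.11.

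The members and lists were chosen with earlier results of these data known. In each list the called genes with the smallest adjusted p, up to 4, are named. Further genes, such as Fzd5, Lrp5, Lgr4, Ppp2r5c, Myc and Jun, were named after their values were seen. Alternatives were other scalings, filters, offsets and moderation, a replicate block, ribosomal RNA genes left out, and libraries left out. Promoters come from RefSeq, and exon lengths and overlaps from GENCODE M21, matched by gene ID.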

Additional observations from a re-analysis of the deposited data

How the results depend on the processing

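Over the 16 alternatives, Apc and Fzd7 passed in each, Gsk3b in 9 and Lrp6 in 1, so that 2 to 4 of the 10 genes were called. Scaling to total counts gave 3169 genes called, 932 of them lower, and 70.6% of its calls were higher against 52.6% with trimmed means. It moved the median log2 fold change of all genes to 0.10, and relative to that shift Ctnnb1 (0.083) and Axin1 (0.056), which changed sign, lay below it. Without the libraries DMSO b and urolithin A a, the libraries with the most ribosomal RNA, 2522 genes were called, 1330 higher and 1192 lower. In that setting Btrc changed sign (-0.084). Ctnnb1 also changed sign, to 0.0061, with a stricter filter. Leaving out 1 library at a time gave 3485 to 5140 calls, the fewest without DMSO library b, and values of -0.043 to 0.022 for Ctnnb1, -0.098 to 0.043 for Axin1, -0.085 to 0.11 for Btrc and -0.015 to 0.11 for Csnk1a1. None of these sign changes concerned a called gene, and the cause was not tested. With a replicate block by letter, 4496 genes and the same 3 of the 10 were called, Gsk3b at 0.25 on the log2 scale (limma adjusted p = 0.0371). Libraries of the same letter did not deviate together (correlations of 0.07, -0.14 and -0.08 for a, b and c). For libraries of unlike letters these correlations ran from -0.26 to 0.29. With 3 libraries per group such values cannot decide whether the letters mark shared animals or cultures. Fzd7, Axin2 and Btrc had the widest intervals and the fewest counts of the 10 genes, and how far the counts set that width was not tested.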
